A study of Ovis aries with 17 samples.

Results

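*ADORA3*, the gene of the adenosine A(3) receptor, was followed across 6 subsets of sheep immune cells on 17 single-colour Agilent arrays. It was chosen by name, with its signals on these arrays already known, so its levels are given as a description and were not tested. Of 15060 probes, 423 had a gene symbol, for 409 genes, and the others only an identifier of their own. For *ADORA3* this left 1 probe, A_70_P051241, which the files identify by its RefSeq transcript. The study set out to match mononuclear phagocyte subsets between species, and these arrays are its sheep side.

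All samples came from control sheep. The study's methods describe the sheep used for blood collection as «Prealpe» females, and do not state breed or sex separately for spleen and cultures. B lymphocytes (B, 4 arrays) and macrophages (MP, 3 arrays) were sorted from spleen, the latter by CD14. The plasmacytoid dendritic cells (pDC, 3 arrays) were sorted from blood as low-density cells. The XCR1- DC of the labels (cDC2 here, for type 2 conventional dendritic cells, 3 arrays) were sorted from low-density blood cells as CADM1lo CD172hi, and the XCR1+ DC (cDC1 here, 1 array) as CADM1hi CD172lo, after cells with B, CD11b, TCR1 or CD45RB staining had been gated out. The MoDC (3 arrays) were in vitro cultures with GM-CSF. Their labels do not name the starting cells, which the study gives as bone marrow, so the name MoDC is kept here only as the label's. Per the labels, RNA of several animals was mixed where a sort gave too little of it, and the labels do not say on which arrays. For cDC1 and cDC2, the study's methods start from low-density blood cells of several sheep. An array is therefore not always 1 animal, and the spread between arrays is not always that between sheep. cDC1 rested on a single array, and its values have no error.

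Adenosine builds up outside cells when ATP is released and broken down, and it is sensed by a family of G protein-coupled receptors, *ADORA1*, *ADORA2A*, *ADORA2B* and *ADORA3*. The product of *ADORA3* couples to Gi proteins, which lower cyclic AMP. It is best known from mast cells, eosinophils, neutrophils and macrophages, in which it acts on degranulation, migration and cytokine release.

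Every *ADORA3* value rests on the sequence below, shown because it is the only probe named for this gene. It is the 60-base probe as the files print it, 5′ to 3′, in lower case throughout, since no part of it is singled out.
A_70_P051241: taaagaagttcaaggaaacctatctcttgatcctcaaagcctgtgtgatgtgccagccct
In this sequence 27 of 60 bases were G or C (45.0%), close to the median of 43.3% over the other 15059 probes. The longest run of bases it had in common with any of them, on either strand, was 15 bases. The probe occupied 1 spot per array. This spot was well above background on 17 of 17 arrays and carried an outlier flag on 0. Its background-corrected signal ran from 58.8 on B replicate 2 to 1067 on MP replicate 1, in units of scanner brightness. Its median brightness was at least 3.39 times that of the local background, the lowest ratio being that of B replicate 3.

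Arrays differed in brightness: the 75th percentile of their spot signals was 194 at the lowest (MP replicate 2) and 688 at the highest (MoDC replicate 2), and 61.1% to 80.2% of spots were well above background. The number of arrays limits the precision of every value below. Replicate n of B, pDC, MP and MoDC lay on slide n, for slides 1 to 3, whereas B replicate 4, all cDC2 arrays and the cDC1 array shared slide 4. The levels of *ADORA3* are log2 of the signal over the 75th percentile of the same array, so that 0 is a signal equal to that percentile.

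*ADORA3* was low in B and pDC and higher in MP, MoDC, cDC2 and cDC1. In B it was at -1.01, -2.12, -2.64 and -0.97 on replicates 1 to 4, a mean of -1.69 ± 0.83 (SD, n = 4). In pDC it was at -1.94, -1.85 and -0.22, a mean of -1.33 ± 0.97 (SD, n = 3). pDC replicate 3 stood above every B array, while the other two pDC arrays lay within the B range. In MP it was at 1.12, -1.11 and 0.75, a mean of 0.25 ± 1.20 (SD, n = 3), and MP replicate 2 was below the higher B arrays. In MoDC it was at 0.60, 0.02 and -0.21, a mean of 0.14 ± 0.42 (SD, n = 3). In cDC2 it was at 1.03, 0.08 and 0.59, a mean of 0.57 ± 0.48 (SD, n = 3). All cDC2 arrays lay above all B and pDC arrays. The cDC1 array was at 1.09, just above the highest cDC2 array and just below MP replicate 1. Sorted and cultured populations were measured in bulk, so fewer cells with the transcript and less transcript per cell cannot be told apart.

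**Figure D1:**
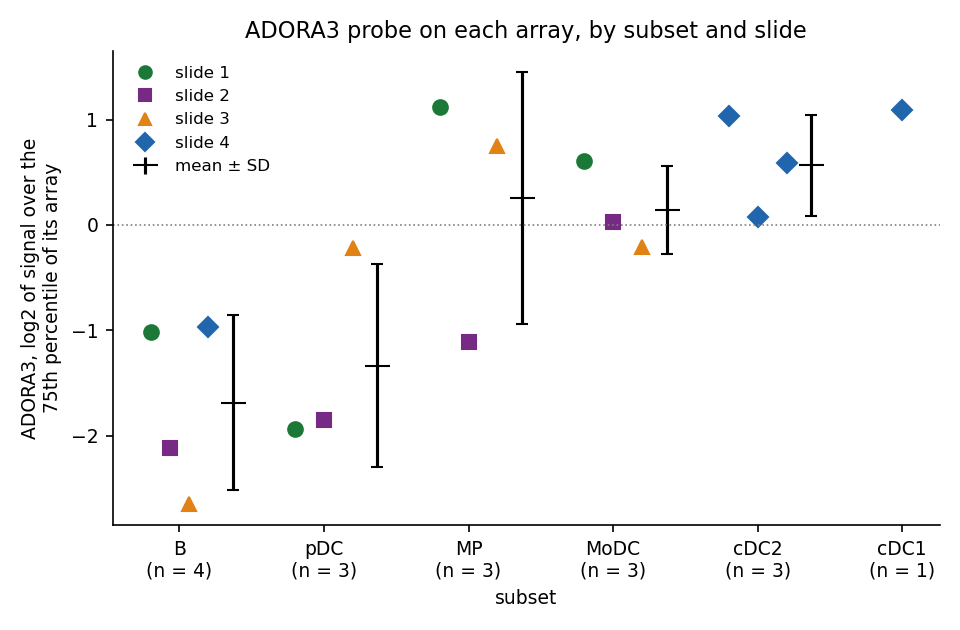
Level of the ADORA3 probe on each of 17 arrays (y axis, log2 of signal over the 75th percentile of the array, marked at 0 by the dotted line) by subset (x axis); symbols mark the slide and bars the mean ± SD of subsets with 3 or 4 arrays. The B arrays sit between -2.64 and -0.97 and the cDC2 arrays between 0.08 and 1.03, while MP replicate 2 (-1.11) and pDC replicate 3 (-0.22) stand away from the other arrays of their subsets.

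In order of the means, cDC1 came first, followed by cDC2, MP, MoDC, pDC and B. The spread within subsets, pooled over the 5 replicated ones, was 0.83 (SD, log2 scale). Most neighbours in this order differed by less than that: cDC1 over cDC2 by 0.52, cDC2 over MP by 0.31, MP over MoDC by 0.11 and pDC over B by 0.35. The exception was the step from MoDC to pDC, 1.47 or 2.78-fold, which is 1.77 times the pooled SD. Even there, the lowest MoDC array exceeded the highest pDC array by only 0.01. Of the 15 pairs of subsets, 7 overlapped in their ranges. The B range lay clear of MoDC, cDC2 and cDC1, but MP replicate 2 was 0.14 below the highest B array. The means of cDC2 and B differed by 2.25 (4.76-fold), those of MP and B by 1.94 (3.83-fold) and those of MoDC and B by 1.82 (3.54-fold). Put together, the 7 B and pDC arrays had a median of -1.85 and the 10 arrays of the other subsets a median of 0.60, over a full range of 3.76, or 13.6-fold.

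Slides were then compared separately, because replicates of B, pDC, MP and MoDC were spread over slides 1 to 3 and the conventional dendritic cells were confined to slide 4. On slide 1, MP (1.12) was highest, followed by MoDC (0.60), B (-1.01) and pDC (-1.94). On slide 2 the order was MoDC (0.02), MP (-1.11), pDC (-1.85) and B (-2.12). On slide 3 it was MP (0.75), MoDC (-0.21), pDC (-0.22) and B (-2.64). MP and MoDC were therefore above B and pDC on each of these 3 slides, by a margin of only 0.01 between MoDC and pDC on slide 3. MP replicate 2, on slide 2, was the lowest MP array, while B, pDC and MoDC did not have their lowest value on that slide. It was still 0.73 above pDC and 1.00 above B there. On slide 4 the cDC1 array and all 3 cDC2 arrays were above the B array, which was at -0.97. No slide held cDC1 or cDC2 beside MP, MoDC or pDC, so a difference between these and the effect of the slide cannot be told apart. Slide 4 was also the only one read with another version of the spot-reading software, which is part of that effect.

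**Figure D2:**
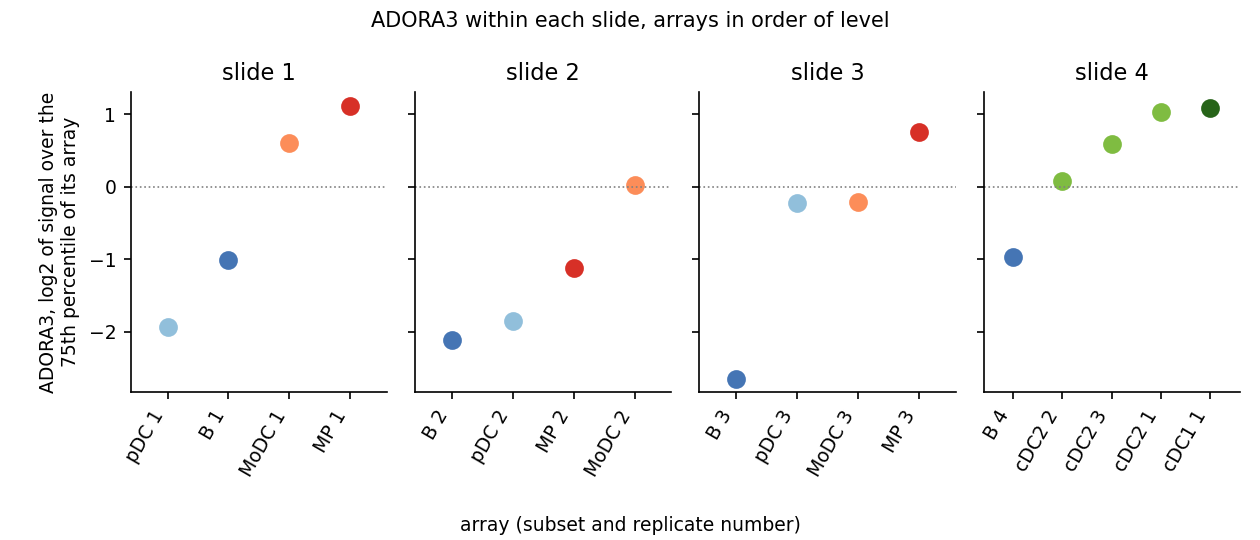
Level of the ADORA3 probe (y axis, log2 of signal over the 75th percentile of the array) on the arrays of each of 4 slides (x axis, subset and replicate number in order of level), coloured by subset. MP and MoDC lie at or above the level of pDC and B on slides 1 to 3, with MoDC at -0.21 and pDC at -0.22 on slide 3, and B lies lowest on slide 4 at -0.97.

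The position of cDC1 changed with normexp, a model-based background correction that was run on unprocessed spot intensities. With it the cDC1 array was at 0.32 instead of 1.09, below the cDC2 mean of 0.67 and the MP mean of 0.43. cDC1 stayed first with quantile normalization, as it did in the authors' series table. MP and MoDC changed places in the series table, in which their means differed by 0.02. B and pDC were the lowest subsets in all 4 versions of the values, in that order from the bottom. The level of MP depended on its replicate 2: without this array the mean of MP was 0.93, above that of cDC2. Without pDC replicate 3 the mean of pDC was -1.89, below that of B.

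**Figure D3:**
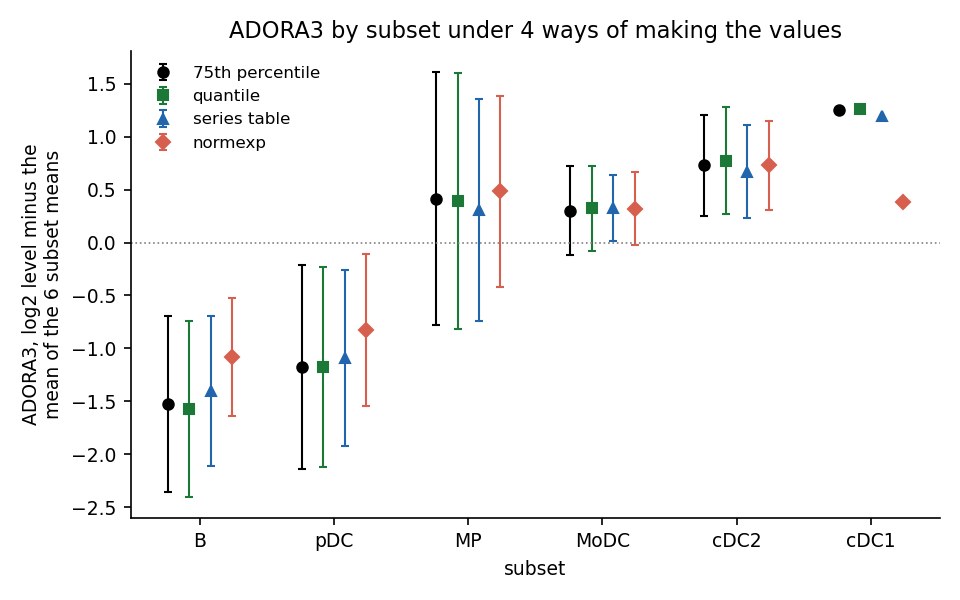
ADORA3 level of each subset minus the mean of the 6 subset means (y axis, log2 scale) under 4 ways of making the values; bars are ± SD between arrays, and cDC1 has 1 array and no bar. B and pDC stay below 0 and the other subsets above it, and cDC1 falls from 1.25 to 0.38 with normexp.

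*ADORA3* varied more between arrays of a subset than most probes did. Its SD in MP, 1.20, was above that of 92.7% of the kept probes, whose median SD was 0.38. In pDC and cDC2 it was above 88.5% and 88.0% of them, and in B above 81.1%. MoDC was the exception: there its SD of 0.42 was above that of only 22.9% of probes, and the median probe varied by 0.70. From the lowest to the highest array the signal of *ADORA3* differed 4.69-fold in MP, 3.28-fold in pDC, 3.20-fold in B, 1.94-fold in cDC2 and 1.76-fold in MoDC.

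Markers of other cell types were set beside these values, from lists of textbook genes. Of the mast cell and basophil markers, 1 of 16 was named on the array, the tryptase gene *TPSB2*, and it was well above background on 4 of 17 arrays. Of the eosinophil markers 1 of 12 was measured, the chemokine receptor gene *CCR3*, and of the neutrophil markers 1 of 15, the lactoferrin gene *LTF*. *CCR3* was highest in cDC2 (-1.43 ± 0.19, SD, n = 3) and B (-1.55 ± 0.50, SD, n = 4) and low in MoDC (-4.53) and on the cDC1 array (-4.58). *LTF* was highest in MoDC (0.77). Over the 17 arrays the r with *ADORA3* was -0.201 for *CCR3* and 0.369 for *LTF*.

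The monocyte and macrophage list had 6 of 28 genes measured, *CD14*, *CSF1R*, *ITGAM*, *LYZ*, *TLR2* and *TIMP1*. Their signals, summed as multiples of the 75th percentile, came to 7.17 to 14.7 in B, 37.9 to 79.5 in pDC, 364 to 424 in MP, 172 to 237 in MoDC, 131 to 149 in cDC2 and 60.8 in cDC1. In pDC nearly all of the sum came from *TIMP1*, the gene of a metalloproteinase inhibitor, at 5.99, 6.28 and 5.13 on the log2 scale. The mean log2 level of the 6 genes was lower in pDC (-1.92) than in B (-1.40), and was 0.11 on the cDC1 array, 1.36 in cDC2, 2.01 in MoDC and 3.23 in MP. The macrophage growth factor receptor gene *CSF1R* and the CD11b gene *ITGAM* were not well above background on any pDC array or on the cDC1 array. Their values there are only bounds, so the pDC means of the list are not firm, nor is their order against B. *LYZ* was at 4.64 on the cDC1 array and at -0.19 in pDC (mean of 3 arrays), and *CD14* at 3.02 against 0.00. Within B the sum was higher on replicates 1 and 4 (14.7 and 11.5) than on replicates 2 and 3 (8.92 and 7.17), as *ADORA3* was. Within pDC the sum was lowest on replicate 3 (37.9), the array with the highest *ADORA3* level, but the mean log2 level of the list was highest there (-1.71). Within MP the sum was highest on replicate 2 (424), the array with the lowest *ADORA3* level, whereas the mean log2 level was 3.39 there and 2.89 and 3.41 on replicates 1 and 3. The part of other cells in the *ADORA3* signal was not tested.

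Of the T and NK cell list, 4 of 22 genes were measured, *CD3D*, *CD3E*, *CD247* and *GNLY*, and their summed signal was 44.6 to 49.2 in pDC against 0.47 to 9.48 on the other arrays. Of the 3 pDC markers measured, only *TCF4*, a transcription factor gene, was highest in pDC, at 1.19 beside 0.85 in B and 0.72 in cDC2. *IRF8* and *TLR9* were higher on the cDC1 array (6.44 and -4.32) than in pDC (means of 4.85 and -4.50). The study itself considers it likely that its sheep pDC held some B cells, and that its sheep cDC2 held some pDC. The name pDC is therefore kept here as the label's, and the share of other cells in these arrays was not tested. The B cell marker *CR2* was at 4.22 ± 0.02 (SD, n = 4) in B and below 0 on all other arrays. The cDC1 genes *XCR1* and *BATF3* were highest on the cDC1 array (2.61 and 6.24), and *CLEC9A* was well above background there only. *SIRPA*, the CD172 gene, was well above background on 0 of 17 arrays, so the cDC2 label could not be checked with it.

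Next, probes were ranked by their likeness to *ADORA3*, as Pearson's r over the 17 arrays among the other 11548 kept probes. These arrays share slides and subsets, and r was used as a description only. The median r was -0.01, 1% of probes had an r above 0.77, and the highest was 0.90. None of the 10 most alike probes had a gene symbol. They were A_70_P057376 (r = 0.90), A_70_P029086 (0.887), BL_OCA_F000178 (0.885), A_70_P006361 (0.878), A_70_P034346 (0.875), A_70_P012781 (0.875), A_70_P059521 (0.865), A_70_P057476 (0.856), A_70_P052426 (0.853) and A_70_P065116 (0.853). After the 2 arrays with the most extreme *ADORA3* values, B replicates 2 and 3, were left out, their r stayed between 0.752 and 0.883. With each slide centred on its mean, it was between 0.821 and 0.933.

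Within the 10 arrays of MP, MoDC, cDC2 and cDC1, the r of each of these probes was below its value over all arrays, between 0.250 and 0.874. Within the 7 B and pDC arrays it was 0.448 to 0.906, and there A_70_P059521 (0.906) was above its value over all arrays. The probe A_70_P057376 was the closest in the first of these sets. It was at -3.67, -5.62 and -4.27 on the MP arrays, the value on replicate 2 being below the lowest signal well above background on that array (-4.79) and so only a bound, and at -3.13, -4.01 and -4.45 in cDC2. It was well above background on 10 of 17 arrays, and its r with *ADORA3* dropped to 0.286 with normexp. BL_OCA_F000178, well above background on all arrays, kept an r of 0.876 with normexp, of 0.919 in the series table and of 0.902 under quantile scaling, and was lower on MP replicate 2 than on the other MP arrays (-0.32, against 0.71 and 0.30), as *ADORA3* was.

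Among probes with a symbol, the 10 most alike were *BMPR2* (r = 0.843), *LGALS1* (0.817), *LRP6* (0.785), *LOC443441* (0.765), *BATF3* (0.745), *LYZ* (0.740), *GSN* (0.739), *AHR* (0.732), *ITGB2* (0.726) and *ID2* (0.721). *BMPR2* encodes a receptor of bone morphogenetic proteins and *LRP6* a co-receptor of Wnt proteins. Galectin-1, the lectin encoded by *LGALS1*, was between 0.42 and 1.52 in B and pDC and between 4.62 and 6.86 on all other arrays. *LYZ*, the gene of the antibacterial enzyme lysozyme, was between -0.74 and 1.80 in B and pDC and between 1.63 and 7.58 elsewhere, with MoDC replicate 3 the lowest of the latter. *GSN* encodes the actin-severing protein gelsolin, *ITGB2* the common subunit of the leukocyte integrins, and *AHR* a receptor for aryl hydrocarbons. *BATF3* and *ID2* encode transcriptional regulators of conventional dendritic cell development. Within the 10 arrays of MP, MoDC, cDC2 and cDC1, none of these genes had an r above 0.46, the value of *BATF3*, and *ID2* had -0.224. Within the 7 B and pDC arrays their r was higher for some, at 0.835 for *BMPR2*, 0.749 for *LRP6*, 0.570 for *ITGB2* and 0.502 for *LYZ*, and down to -0.399 for *ID2*. *BMPR2* was below the lowest signal well above background on B replicates 2 and 3 and pDC replicates 1 and 2. *LRP6* was below it on B replicate 2 and pDC replicate 1. These values are only bounds, so the r of both genes rests in part on the floor. The step between the B and pDC arrays and the others was known when *ADORA3* was chosen.

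**Figure D4:**
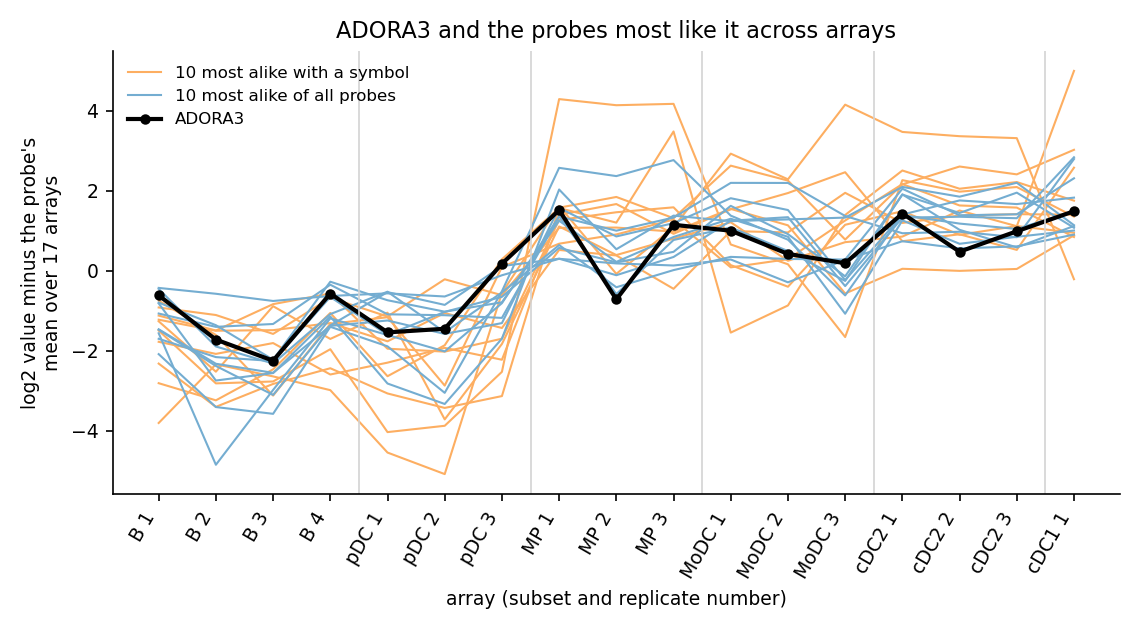
ADORA3 (black), the 10 probes most like it (blue) and the 10 most like it among probes with a symbol (orange) across 17 arrays (x axis); the y axis is the log2 value minus the mean of that probe over the arrays. Their values are mostly higher on the other arrays than on the B and pDC arrays, and some lines of both colours are, like ADORA3, lower on MP replicate 2 than on the other MP arrays.

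The other genes of the adenosine pathway could hardly be read. *ADORA1*, *ADORA2A* and *ADORA2B* had no probe with their symbol, nor had any of 36 listed genes of adenosine supply and removal, such as ectonucleotidases, deaminase and nucleoside transporters, or any of 17 P2 receptor genes, whose products bind extracellular nucleotides. Of 79 genes of Gi, cyclic AMP and G protein signalling, 3 were named on the array and kept, among them *PRKACA* and *CREM*. Of 163 genes of other G protein-coupled receptors, 21 were named and 8 kept. Of the other 13, 12 were well above background on at most 7 arrays and on not all arrays of any subset, and the probe of *TRHR* was not used because of flagged spots.

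These 11 genes gave 110 combinations of a gene and a pair of replicated subsets. limma called 34 of them (30.9%) at an adjusted p under 0.05 and at least a 2-fold difference, beside 24.2% of the combinations of all 11311 genes. *CCR9*, *LPAR1* and *CRHR1*, with 4, 5 and 1 of these calls, were kept only because 1 subset, the one in which each was highest, had all its arrays well above background. A difference from that subset was therefore to be found by the choice of genes, and their folds and p-values below describe its size only. The median size of the difference was 0.74 on the log2 scale for the listed genes and 0.70 for all genes. Their r with *ADORA3* over the 17 arrays ran from -0.472 (*CCR10*) to 0.515 (*XCR1*), and none was among the 10 most alike genes with a symbol. By pair, 6 of the 11 genes were called between MoDC and cDC2, where 33.4% of all genes were, and 5 between pDC and MP, beside 25.9%. Between B and MoDC 4 were called, beside 36.1% of all genes, and between pDC and cDC2 also 4, beside 20.2%. The pairs with 3 calls were B and pDC (9.22% of all genes), B and MP (24.3%), pDC and MoDC (33%) and MP and cDC2 (11.2%). MP and MoDC had 2, beside 25.9%, and B and cDC2 had 1, beside 23.1%. With normexp 15 combinations were called, none of them of *XCR1*, *PRKACA* or *CRHR1*, and the share of the listed genes (13.6%) was then below that of all genes (15.9%). In the series table the shares were 22.7% and 22%. With slide as a block 8 of the 34 calls were lost, all of them in pairs with cDC2, whose arrays shared a slide with 1 B array only among the replicated subsets. In these pairs the calls over all genes also fell, from 22% to 5.31%, beside 14 and 6 calls of 44 for the listed genes.

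Among the signalling genes, *CREM*, the cyclic AMP responsive element modulator, was highest in MP. It was at -2.12, -2.54 and -2.50 in MP (mean -2.39) and at -3.71 in B, -3.59 in pDC, -4.25 in MoDC and -4.08 in cDC2. MP did not overlap with any other subset, and all 4 differences passed, from 2.30-fold over pDC (adjusted p = 0.00408) to 3.65-fold over MoDC (adjusted p = 0.000204). Each of these calls was lost in another setting: that over B with normexp, that over pDC with normexp, in the series table and without pDC replicate 3, that over MoDC in the series table, and that over cDC2 with normexp and with slide as a block. *PRKACA*, the catalytic subunit of protein kinase A that cyclic AMP activates, averaged -1.62 ± 0.53 (SD, n = 3) in MoDC and was higher there than in B (2.38-fold, adjusted p = 0.00261) and cDC2 (2.66-fold, adjusted p = 0.00268). The call over B was lost with normexp, in the series table and without MoDC replicate 3, the array with the highest value, and that over cDC2 with normexp and with slide as a block.

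Of the chemokine receptor genes, *CCR9* and *CCR10* were highest in pDC, where *ADORA3* was low. *CCR10*, the receptor of CCL27 and CCL28, was at -0.06, 0.12 and 0.24 in pDC and no higher than -2.03 on any other array. It was 6.86-fold higher in pDC than in B (adjusted p = 0.000355) and 11.3-fold to 26.4-fold higher than in cDC2, MP and MoDC. *CCR9*, the receptor of CCL25, was well above background on all 3 pDC arrays, at -1.03, -2.46 and -0.30, and on 2 others. In MP and MoDC it was not well above background, which gives a bound: pDC was at least 11.98-fold higher than MP and at least 21.2-fold higher than MoDC (adjusted p = 0.00107 and 0.00066). *CCR3*, known from eosinophils, was 4.87-fold higher in B than in pDC (adjusted p = 0.000664) and 7.85-fold higher than in MoDC (adjusted p = 8.59e-06), and 8.53-fold higher in cDC2 than in MoDC (adjusted p = 2.58e-05). Its levels in B and cDC2 overlapped, and their difference was not called.

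*XCR1*, the receptor of XCL1, was at 2.61 on the cDC1 array, where *ADORA3* was also high. Among the replicated subsets it was highest in cDC2, at -1.58, -2.63 and -2.29, and was there 4.19-fold above pDC (adjusted p = 0.0046) and 3.56-fold above MoDC (adjusted p = 0.00641), the latter not called in the series table. It was also 2.78-fold higher in MP than in pDC (adjusted p = 0.0247), a call that was lost without pDC replicate 2, pDC replicate 3 or MP replicate 3. With a block its difference between MP and MoDC was called too (adjusted p = 0.0254 with slide and 0.0194 with the replicate number). *LPAR1*, a receptor of lysophosphatidic acid, was at -2.59, -2.15 and -1.74 in MoDC, the only subset with all arrays well above background. It was at least 8.86-fold higher there than in pDC and at least 12.4-fold higher than in cDC2 (adjusted p = 0.000566 and 0.00117). The difference between MP and B was not called, but it was with a block (adjusted p = 0.0209 with slide and 0.00955 with the replicate number). In B it was well above background on replicates 1 and 4 only (-4.35 and -4.09), the B arrays on which *ADORA3* was higher too. *CRHR1*, a receptor of corticotropin-releasing hormone, was well above background on all cDC2 arrays, at -2.62, -4.02 and -3.76, and was at least 4.74-fold higher there than in MoDC (adjusted p = 0.00469), a call lost with slide as a block. The somatostatin receptor gene *SSTR5* and the kisspeptin receptor gene *KISS1R* were called by limma in 0 of 10 pairs, with 1 and 0 pairs at an unadjusted p under 0.05. For *SSTR5* the pair of MoDC and cDC2 was called with the replicate number as a block (adjusted p = 0.0439), a number that pairs no cDC2 array. Differences of *KISS1R* between the replicated subsets were at most 1.54-fold.

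**Figure D5:**
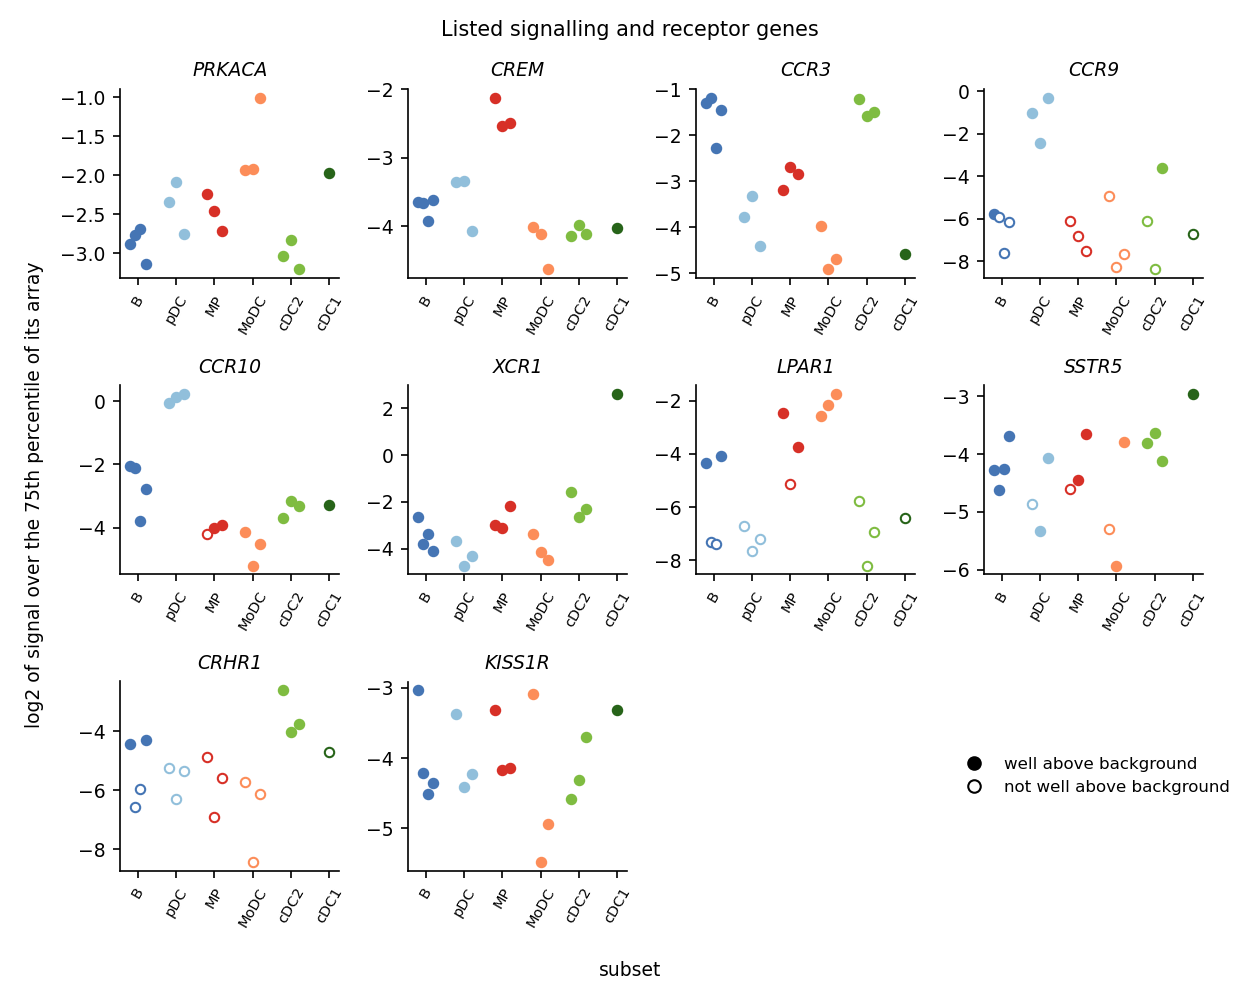
The signalling genes CREM and PRKACA and the 8 receptor genes kept for testing, 1 panel per gene with its own scale (y axis, log2 of signal over the 75th percentile of the array), by subset (x axis, 1 point per array); open points are not well above background. CCR9 and CCR10 stand out in pDC, CREM in MP, LPAR1 in MoDC and MP, and XCR1 on the cDC1 array at 2.61.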

How the data were processed

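RNA of 17 samples in 6 subsets was hybridised by the authors to a custom ovine Agilent design (1 array per sample) after amplification and Cy3 labelling. The authors read the spots with Feature Extraction (per the file headers, version 10.7.3.1 on 12 arrays and 10.10.1.1 on the 5 arrays of slide 4). The deposited background-corrected intensity of each spot is on a linear scale and not normalized between arrays. Flags deposited with each spot (0 or 1) mark a signal well above background and an outlier. The deposited series table holds the authors' log2 values, whose scaling is not given in the sources used here. Its numbered rows were joined to probe names sorted alphabetically (r from 0.969 to 0.988 with each column's own array, 17 of 17 highest there) and served as an alternative.

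Values are log2 of the intensity minus that of the 75th percentile of the array, averaged over unflagged spots. Probes with over 50% of spots well above background on every array of a subset were kept (11549 of 14842 with values). The probe with the highest sum stood for a gene, giving 11311 genes, 263 of them with a symbol. Symbols came from the files or, by accession, from a RefSeq table (ARS-UI_Ramb_v3.0) used for names only, 409 in all. limma 3.58.1 in R 4.3.3 fitted group means to all 17 arrays, and 10 pairs of the 5 replicated subsets were compared. Calls needed a Benjamini-Hochberg adjusted p under 0.05 within a pair and at least a 2-fold difference. On simulated data the fit was tested before use. Where no array of a subset was well above background, a fold is a bound against the mean of, per array, the lowest signal well above background or the probe's own value if higher.

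The gene, the lists and the tests were chosen with earlier results of these data known. The text names *ADORA3*, each kept gene of the 5 receptor and signalling lists, the 10 probes and the 10 probes with a symbol most like *ADORA3*, and marker genes by count or where they check a subset. 1 kept gene of the lists is counted but not reported here. Alternatives were quantile normalization, normexp with an offset of 50 on spot and local background intensities (on the mean of the spot for 13 arrays and its median for the other 4, and, added after the data were seen and used in the text, on the median for all), the series table, no filter, other probe rules, blocks and leaving out each array. Equal replicate numbers of B, pDC, MP and MoDC share a slide, and their deviations from group means correlated in every pair (r from 0.101 to 0.561). Those numbers therefore pair the arrays, but a shared slide and shared animals cannot be told apart. The main fit used no block, so its calls leave this pairing out. With cDC2, which shares no slide with equal numbers, r was -0.151 to 0.091. Slides were read from the barcodes in the file headers.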

Additional observations from a re-analysis of the deposited data

Results flagged for a closer look

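In the 4 B arrays, *CREM* had 1 array apart from the others, relative to a small spread (SD 0.14, log2 scale). Replicate 3 was at -3.92 and replicates 1, 2 and 4 at -3.64, -3.66 and -3.61, and the gap to the nearest of them was 0.867 of the whole range, above Dixon's critical value for 4 samples. Of 32 genes and probes examined in this way, it was the only one past that value. Chance alone gives about 1 in 20, so this is no more than chance would give. The 3 arrays of each other subset were too few for this test.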

How the results depend on the processing

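For *ADORA3*, levels relative to the mean of the 6 subset means were -1.52 in B cells and -1.17 in pDC, but 1.25 on the cDC1 array, 0.73 in cDC2, 0.41 in MP and 0.30 in MoDC. No alternative changed a sign. Moves were measured against the SD between arrays of the subset. Since cDC1 has 1 array and no SD of its own, the root mean square of the SDs of the other subsets stood in for it. The only move over this yardstick was that of cDC1 with normexp. It went to 0.40 on mean intensities (medians for 4 arrays) and to 0.38 on median intensities, a version added after the data were seen. The cause was not tested. With each array left out in turn, the levels were -1.72 to -1.26 for B cells, -1.64 to -0.92 for pDC, 0.05 (without MP replicate 1) to 0.98 (without MP replicate 2) for MP, 0.11 (without MoDC replicate 1) to 0.55 in MoDC, 0.53 to 0.98 for cDC2 and 1.14 to 1.34 for cDC1. Of the 34 calls among listed genes, both versions of normexp left 15 (13.6% of combinations, beside 15.9% of all genes), the only alternatives to move this count over 1.5 times. The count was 34 after quantile normalization (30.9%, beside 24% of all genes), 25 in the series table, 35 without the filter (15.2%, beside 18.7% of all genes) and 30 to 37 with 1 array left out (27.3% to 33.6%, beside 20.7% to 27.6%), and 25 of the 34 calls held with every array left out in turn. No call changed sign. With slide as a block 28 combinations were called (25.5%, beside 19.2% of all genes), 26 of them among the 34, and with the replicate number as a block 42 (38.2%, beside 26.1%), among them all 34. *LPAR1* in B against MP and *XCR1* in MP against MoDC were gained with both blocks. Equal numbers share a slide in B, pDC, MP and MoDC but not in cDC2, and 4 of the 8 calls gained with that block were in pairs with cDC2, where the number pairs nothing. The block changed single calls: *CRHR1* went from 1 pair to 6 with the replicate block (3 of the 5 gained with cDC2) and to 0 with the slide block. Without a minimum difference 37 were called (33.6%, beside 26.2% of all genes). Of the 10 probes most like *ADORA3*, 6 stayed in the first 10 after quantile normalization, 4 with either normexp, 5 in the series table, 6 by Spearman's rho, 4 with values centred by slide and 0 over the 6 subset means. With 1 array left out, 2 (without MP replicate 2) to 10 stayed, with 6 each without B replicate 3, pDC replicate 3, MP replicate 1 or MoDC replicate 3, so the single probes named depend on these arrays. Scaling moved the median difference of all genes by over 0.1 in pairs with MoDC, at most by 0.28 (MoDC against cDC2, quantile). All alternatives listed for this gene were run.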
